A study of Homo sapiens with 6 samples.

Results

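The genes described are the 7 IGF-binding proteins (IGFBP1 to IGFBP7), the receptors IGF1R and IGF2R, and the docking protein IRS1, measured by RNA sequencing in PANC-1 cells. They are 10 of the 60612 genes of the deposited table and were found there by gene symbol. The family was chosen by a measured value, since IGFBP4 had already been called lower after raffinose in this contrast, and the other 9 were added by name. The difference between the groups is therefore given for these genes as a description, from which nothing is concluded. PANC-1 is an established human pancreatic carcinoma line. It was grown in Dulbecco's modified Eagle medium with fetal bovine serum and antibiotics. The raffinose group (3 libraries) received D(+)-Raffinose pentahydrate, a plant trisaccharide, at 50 µM for 24 h. The untreated group (3 libraries) has no compound, vehicle or time in its own labels. Nothing says that libraries came from separate cultures, so p-values reflect only how far these libraries scatter, and that scatter may be technical.

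IGF-binding proteins are secreted proteins that hold the insulin-like growth factors IGF1 and IGF2 outside the cell and so limit, or sometimes prolong, their access to receptors. IGF1R is a receptor tyrosine kinase that signals through docking proteins such as IRS1 to PI3K and AKT, the pathway named in the series title. IGF2R, the cation-independent mannose 6-phosphate receptor, takes up IGF2 for degradation and sorts lysosomal enzymes. IGFBP4 mostly inhibits IGF action, and it is cut by the protease PAPPA, which the stanniocalcins STC1 and STC2 inhibit.

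IGFBP4 carried the largest transcript level and the clearest difference, so the stretch in front of its gene is shown. The window runs from chr17:40443200-40443449 (plus strand, RefSeq, build GRCh38.p14) and ends at the base before the RefSeq start of the gene at 40443450, which is also the start in the deposited table. Capitals mark TATAAA, the TATA box letters, and CCGCCC, the reverse strand of the GC box GGGCGG.

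IGFBP4: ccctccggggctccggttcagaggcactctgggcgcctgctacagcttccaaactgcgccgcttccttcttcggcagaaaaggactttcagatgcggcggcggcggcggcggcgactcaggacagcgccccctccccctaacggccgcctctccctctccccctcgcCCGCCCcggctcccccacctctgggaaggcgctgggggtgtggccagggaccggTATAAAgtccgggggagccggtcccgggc

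The first T of TATAAA lies 29 bases before the start of the gene. TATAAA on either strand (TTTATA on the other) was found in 10.7% of 35116 RefSeq windows of 250 bases, and among the 10 windows of the 8 members with an entry it was found in that of IGFBP4. The GC box was found in 42.6% of all windows and in 8 of the 10 member windows. The E-box CACGTG, found in 6.34% of all windows, occurred in that of IGF2R, and GTAAACA, a core that FOXO factors bind (reverse TGTTTAC), found in 2.98%, occurred in that of IGFBP6. The IGFBP4 window is 71.6% G and C, against a median of 58.0% over all windows. The letters describe these windows and do not show that a factor binds. IGFBP1 and IGFBP7 have no entry.

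Within the binding-protein family, most of the RNA measured in PANC-1 was that of IGFBP4. Levels between genes are compared in FPKM (fragments scaled by transcript length and library depth), as the authors deposited it. IGFBP4 was at 278, 248 and 259 FPKM in untreated replicates 1, 2 and 3 and at 149, 149 and 138 FPKM in raffinose replicates 1, 2 and 3. It ranked above 99.4% to 99.5% of tested genes in untreated libraries and above 98.8% to 98.9% in raffinose libraries. Of the summed FPKM of the 7 binding proteins, IGFBP4 made up 97.3% ± 0.306 in untreated and 95.2% ± 0.548 in raffinose libraries (SD, n = 3 per group). The sum of the other binding proteins was 7.38 ± 0.822 FPKM untreated and 7.37 ± 0.909 FPKM with raffinose.

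IGF2R came next, at 9.22, 11.9 and 10.8 FPKM in untreated and 12.0, 11.8 and 12.8 FPKM in raffinose replicates 1 to 3. IGF1R followed at 6.34, 7.08 and 6.65 FPKM and then 5.93, 5.72 and 6.13 FPKM. IRS1 was at 5.24, 6.41 and 6.44 FPKM untreated and 5.80, 5.64 and 6.15 FPKM with raffinose. The ranges of IGFBP4, IGF2R and IGF1R over the 6 libraries did not overlap each other, whereas those of IGF1R, IRS1 and IGFBP6 did. IGFBP6, a binding protein that prefers IGF2, ranged from 4.84 to 6.33 FPKM over the 6 libraries. A clear step separated it from IGFBP2 (0.910 to 1.24 FPKM), and another separated IGFBP2 from IGFBP3 (0.300 to 0.488 FPKM), the main carrier of IGFs in blood.

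IGFBP1, IGFBP7 and IGFBP5 each had at least 1 library without reads. IGFBP1 had deposited counts of 19, 46 and 62 in untreated and 0, 115 and 43 in raffinose replicates 1 to 3. The raffinose group thus held both the library without a read and the one with the most. IGFBP7 had counts of 0, 2 and 31 untreated and 10, 11 and 5 with raffinose, so untreated replicate 3 alone held most of its reads. Its gene overlaps POLR2B on the opposite strand, and reads of the overlap cannot be assigned if the counting ignored strand, which is not given in the sources used here. IGFBP5 had a count of 0 in 4 libraries and of 4 in raffinose replicates 2 and 3. As 1 read pair seems to add 4 to a count, the limit that 0 allows, 3 read pairs, corresponds to 0.182 to 0.201 CPM (counts scaled to library size), which covers counting error only and lies above every IGFBP5 value. IGFBP5 was the member that did not pass the filter on low counts, and no fold change is given for it.

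**Figure D1:**
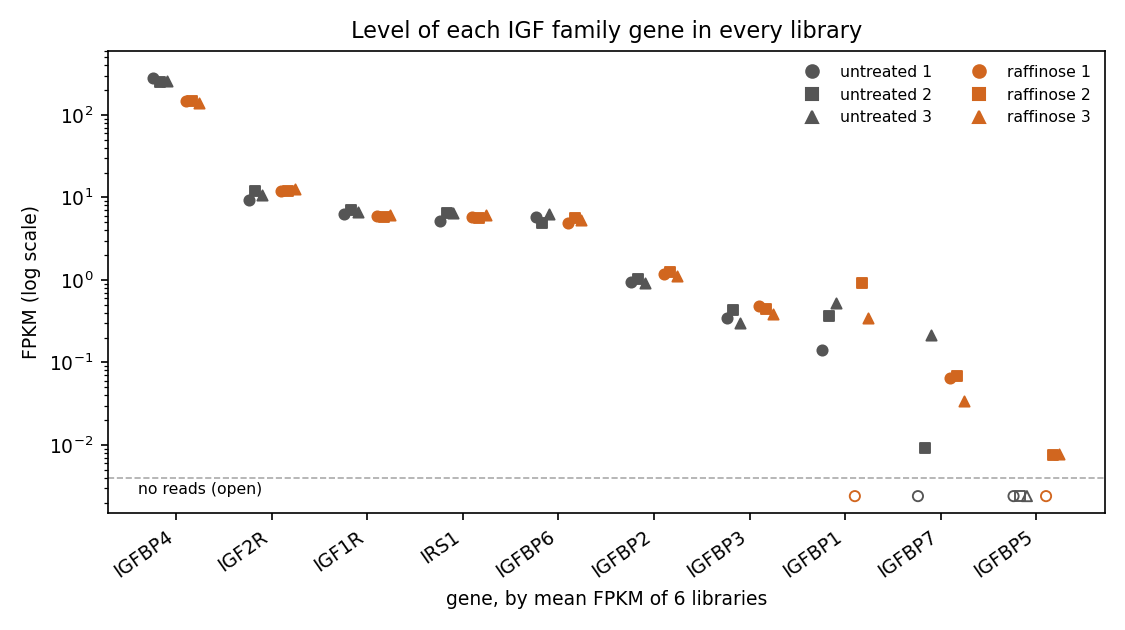
FPKM (log scale) of the 10 genes in each of 6 libraries, ordered by mean; open symbols below the dashed line are libraries without reads. IGFBP4 sits between 138 and 278 FPKM, above all other members, and IGFBP1, IGFBP7 and IGFBP5 scatter down to no reads.

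Some of these genes are neighbours in the genome. In the coordinates of the deposited table IGFBP1 (ENSG00000146678, chromosome 7, 45888360 to 45893660, plus strand) and IGFBP3 (ENSG00000146674, chromosome 7, 45912245 to 45921274, minus strand) lie tail to tail with 18584 bases between them, and both were under 1 FPKM in every library. IGFBP2 (ENSG00000115457, chromosome 2, 216632828 to 216664436, plus strand) and IGFBP5 (ENSG00000115461, chromosome 2, 216672105 to 216695549, minus strand) are 7668 bases apart. IGFBP2 had deposited counts of 310 to 450 while IGFBP5 had at most 4. Apart from these pairs, IGFBP6 (ENSG00000167779) lies on chromosome 12 from 53097436 to 53102345, IGFBP7 (ENSG00000163453) on chromosome 4 from 57030773 to 57110385, and IRS1 (ENSG00000169047) on chromosome 2 from 226731317 to 226799759. The receptor genes are IGF1R (ENSG00000140443) on chromosome 15 from 98648539 to 98964530 and IGF2R (ENSG00000197081) on chromosome 6 from 159969082 to 160113507. IGFBP4 (ENSG00000141753) lies on chromosome 17 from 40443450 to 40457725. Its nearest neighbours with at least 1 FPKM are TOP2A, a DNA topoisomerase of dividing cells, ending 25554 bases before it, and SMARCE1, a chromatin remodelling subunit, starting 167237 bases after it. TOP2A had a log2 fold change of 0.08 (SE 0.09) and SMARCE1 of -0.23 (SE 0.07), and edgeR called neither (adjusted p = 0.761 and 0.286). The groups of TOP2A overlapped, whereas SMARCE1 had raffinose libraries below all untreated ones, as had 10.9% of all tested genes.

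After raffinose IGFBP4 was lower in every library. On CPM scaled by TMM (trimmed mean of M-values) it was at 761, 657 and 690 in untreated replicates 1 to 3 and at 389, 394 and 356 in raffinose replicates 1 to 3. The groups did not overlap, and the highest raffinose library was at 56.1% of the untreated mean. The mean fell by 46.0%, from 702 ± 53.1 to 379.5 ± 20.8 CPM (SD, n = 3 per group). In bulk RNA fewer expressing cells and less RNA per cell cannot be told apart. By edgeR's quasi-likelihood test its log2 fold change was -0.89 (SE 0.07), with a Benjamini-Hochberg adjusted p of 0.0181 over 18863 genes. This is the value that brought the family into view. The call was lost when raffinose replicate 1, 2 or 3 or untreated replicate 3 was left out (adjusted p = 0.0779, 0.0654, 0.0565 and 0.0835), and the log2 fold change stayed between -0.93 and -0.83 over all 6 such fits.

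Among the 9 tested members, 1 was called lower by edgeR and 0 higher, where 0.0848% of all tested genes were called lower and 0.0371% higher. An unadjusted p under 0.05 was reached by 2 members, IGFBP4 and IGF1R, and by 2506 of all 18863 tested genes. DESeq2 called the same member lower and no other, against 2.17% of tested genes called lower and 1.35% higher. Groups without overlap were seen for 2 members lower and 1 higher with raffinose, where 10.9% and 10.6% of tested genes had such groups. As the contrast also chose the family, nothing is read from these shares.

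The receptors and IRS1 moved little. IGF1R was at 110, 118 and 112 CPM untreated and 98.2, 95.9 and 99.7 CPM with raffinose. Its groups did not overlap, with a mean of 113 ± 4.42 against 97.9 ± 1.9 CPM and a log2 fold change of -0.21 (SE 0.06, edgeR adjusted p = 0.215). IGF2R was at 204, 255 and 234 CPM untreated and 254, 254 and 267 CPM with raffinose, so untreated replicate 2 lay within the raffinose range. Its log2 fold change was 0.16 (SE 0.09, edgeR adjusted p = 0.493). The ratio of IGF2R to IGF1R in FPKM was 1.59 ± 0.121 untreated and 2.06 ± 0.0381 with raffinose, with the lowest value (1.45) in untreated replicate 1. IRS1 was at 64.7, 76.5 and 77.4 CPM untreated and 68.5, 67.4 and 71.3 CPM with raffinose, within the untreated range (-0.08 on the log2 scale, SE 0.08).

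None of the other tested binding proteins was called by edgeR, or by DESeq2, which gave IGFBP1 and IGFBP7 no adjusted p. Their differences from IGFBP4 were not tested. IGFBP2, a binding protein that many tumours secrete, was at 5.59, 5.83 and 5.24 CPM untreated and 6.65, 7.11 and 6.12 CPM with raffinose. It was the member whose raffinose libraries all lay above the untreated ones, with a log2 fold change of 0.26 (SE 0.12, edgeR adjusted p = 0.428). IGFBP3 was at 1.99, 2.37 and 1.69 CPM untreated and 2.67, 2.46 and 2.08 CPM with raffinose, which overlap (0.25, SE 0.20). IGFBP6 was at 9.67, 7.83 and 10.3 CPM untreated and 7.77, 9.23 and 8.30 CPM with raffinose (-0.14, SE 0.14). For IGFBP1 and IGFBP7 the SE of the log2 fold change was 1.24 and 1.38, wider than any difference among the other members. The edgeR adjusted p of the 8 tested members beside IGFBP4 ranged from 0.215 to 0.954, which does not show that they were equal in both groups.

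**Figure D2:**
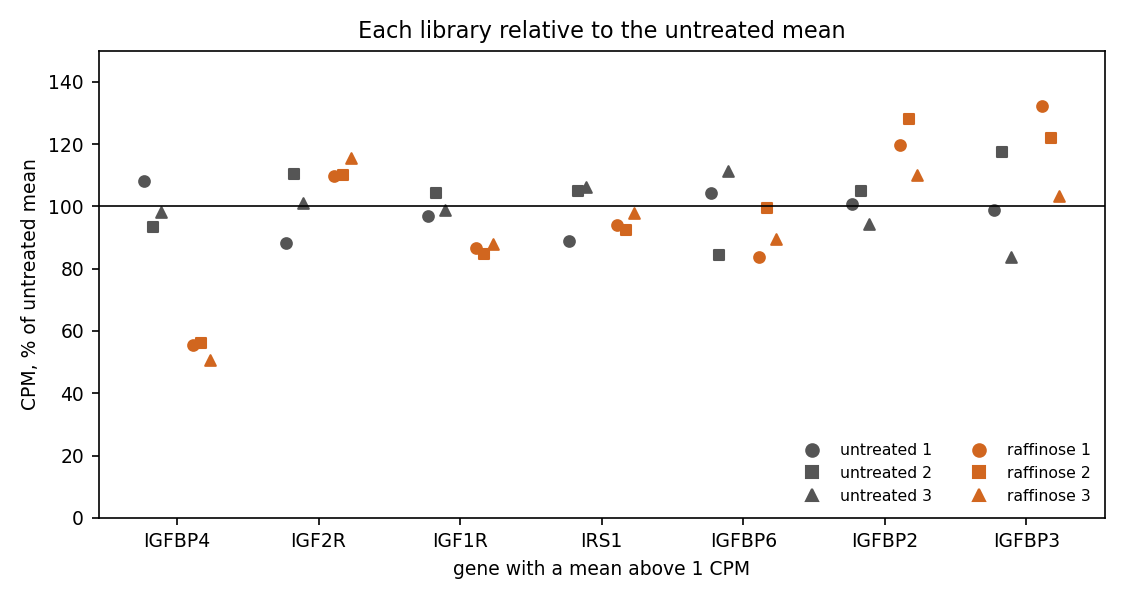
CPM of each library as a percentage of the gene's untreated mean, for the 7 members above 1 CPM; symbols are the 6 libraries. The 3 raffinose libraries of IGFBP4 lie at 50.7% to 56.1%, while no other member goes below 83.7%.

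**Figure D3:**
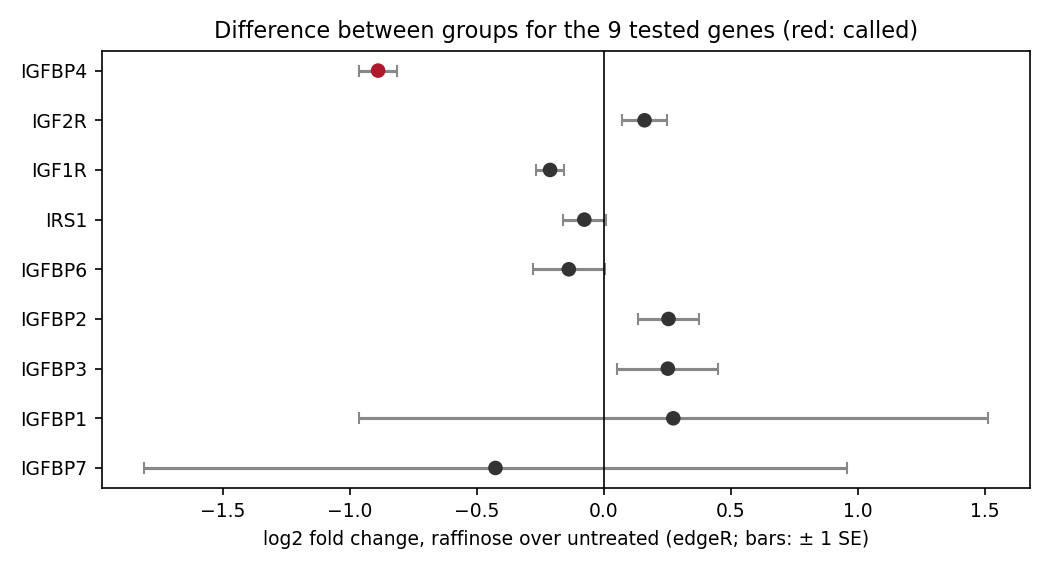
Log2 fold change of raffinose over untreated for the 9 tested members, with bars of 1 SE of the edgeR fit; red marks an edgeR call. IGFBP4 stands at -0.89, and the bars of IGFBP1 and IGFBP7 span both directions.

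Spread between replicates differed among the members. The coefficient of variation of IGFBP4 was 7.56% in untreated and 5.47% in raffinose libraries, and that of IGF1R was 3.90% and 1.94%. The median over 11962 tested genes with at least 1 FPKM in a group was 8.65% and 7.85%. In untreated libraries IGF2R (11.1%), IRS1 (9.72%) and IGFBP6 (13.9%) lay above that median. With raffinose IGF2R (2.96%) and IRS1 (2.90%) lay below it, and IGFBP6 (8.72%) still lay above it. The difference in spread between the groups was not tested. IGFBP1 reached 54.9% and 111%, and IGFBP7 159% and 37.6%.

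The 5 genes whose log2(CPM + 1) followed IGFBP4 most closely over the 6 libraries, among 11961 genes with at least 1 FPKM in a group, were C11orf68, AGR2, ETS2, SPATS2L and HDGF, with a Pearson correlation of 0.997 to 0.998. Such a correlation is a description over libraries that share 2 groups, and all 5 genes had raffinose libraries below all untreated ones. AGR2, a protein disulfide isomerase of secretory cells, was at 742 ± 43.7 CPM untreated and 520 ± 18.9 CPM with raffinose. ETS2, a transcription factor, had a log2 fold change of -0.62 (SE 0.06, edgeR adjusted p = 0.0359), and edgeR did not call the other 4, with -0.51 for AGR2, -0.33 for HDGF, -0.32 for C11orf68 and -0.30 for SPATS2L. DESeq2 called all 5 lower, with adjusted p from 1.24e-10 for ETS2 to 0.00165 for SPATS2L. Of all tested genes DESeq2 called 2.17% lower, and 10.9% had raffinose libraries below all untreated ones. The 5 were chosen for following IGFBP4, whose groups did not overlap, so nothing is read from these calls.

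Partners of the family were taken from 7 lists with 90 genes, all found in the table, of which 70 were tested. The log2 fold change was above 0 for 32 and below 0 for 38, with a median of -0.01, against 0.01 over all tested genes. By edgeR 1 was called higher and 0 lower (0.0371% and 0.0848% of all tested genes), and 14 of 70 had an unadjusted p under 0.05, against 2506 of all 18863. DESeq2 called 2 higher and 3 lower, against 1.35% and 2.17% of all tested genes. Groups without overlap were seen for 12 genes higher and 9 lower, where 10.6% and 10.9% of all tested genes had them. The lists were chosen with earlier results of these data known. Nothing is therefore read from these shares, or from those of the single lists below. The 20 untested genes included 8 without a read in any library, and their highest mean was 0.0301 FPKM.

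IGF2 was the one ligand gene with a sizeable level. It was at 30.7, 31.3 and 29.7 FPKM untreated and 30.1, 28.9 and 32.9 FPKM with raffinose, with overlapping groups (log2 fold change -0.03, SE 0.06). IGF1 had a count of 0 in 5 libraries and 4 in raffinose replicate 3, and INS had 0 in all 6. IGF2BP1, IGF2BP2 and IGF2BP3, which bind IGF2 and other messenger RNAs, had log2 fold changes of -0.12, -0.07 and 0.08, and edgeR called none (unadjusted p under 0.05 for 0 of 3).

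The proteases that release IGFs from binding proteins, and their inhibitors, had 9 of 13 tested genes negative, against 9238 of all 18863. The median log2 fold change of the list was -0.22, against 0.01 over all tested genes. None of the 13 was called by edgeR, and 4 reached an unadjusted p below 0.05, against 2506 of all 18863. DESeq2 called 3 lower (PLAU, STC1 and STC2), against 2.17% of all tested genes. PAPPA, the IGFBP4 protease, was barely detected, at 0.0158 FPKM on average untreated and 0.0205 FPKM with raffinose, and PAPPA2 had no reads. STC1 was at 34.3, 35.1 and 33.1 CPM untreated and 21.2, 21.9 and 24.5 CPM with raffinose (-0.60 on the log2 scale, SE 0.08, edgeR adjusted p = 0.0861). STC2 was at 265, 262 and 271 CPM untreated and 201, 210 and 201 CPM with raffinose (-0.38, SE 0.05, adjusted p = 0.0691). Neither gene's groups overlapped. In the list 4 of 13 genes had raffinose libraries below all untreated ones and 0 above, against 10.9% and 10.6% of all tested genes. PLAU, the urokinase, was at 243 ± 7.88 CPM untreated and 165 ± 10.7 CPM with raffinose (-0.56, SE 0.07, edgeR adjusted p = 0.059). With genes under 1 FPKM left out edgeR called PLAU (adjusted p = 0.0392) and STC2 (0.0440) lower. That fit called 27 of its 12012 tested genes lower. The lysosomal protease CTSB was at 411, 434 and 418 CPM untreated and 220, 443 and 219 CPM with raffinose. Raffinose replicate 2 thus stood with the untreated libraries. The edgeR adjusted p was 0.481 with all libraries and 0.0272, a call lower, without raffinose replicate 2. That fit called 10 of all 18863 genes lower. It leaves out the library that disagreed for CTSB, so nothing is read from the call.

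**Figure D4:**
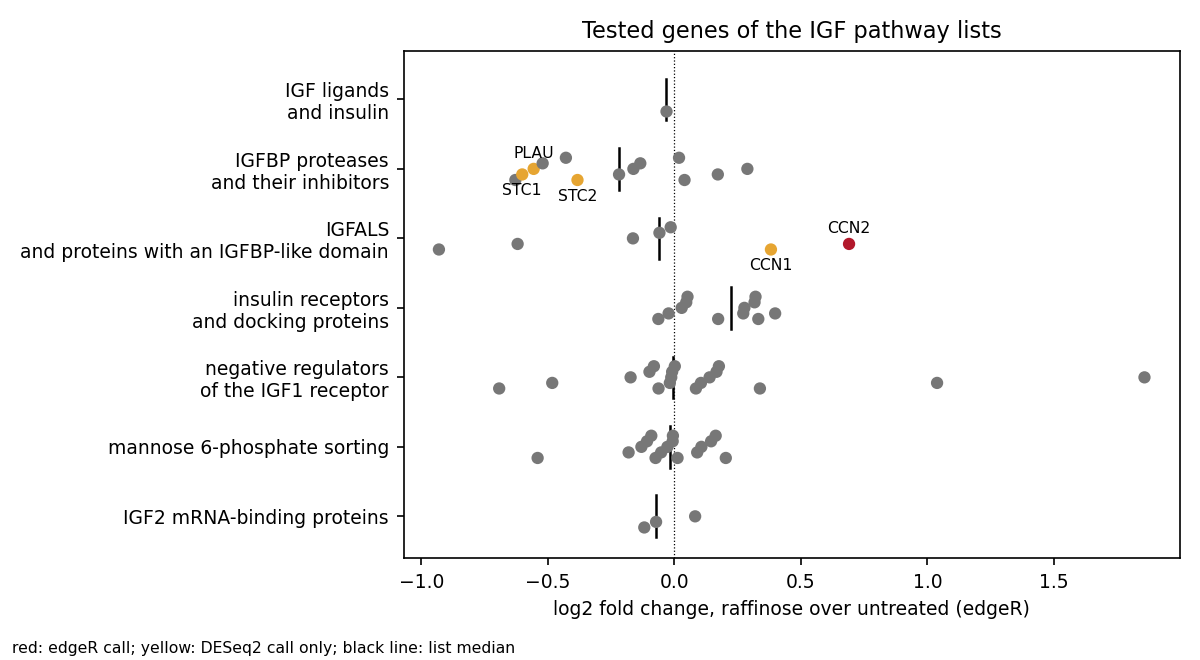
Log2 fold change of raffinose over untreated for the 70 tested genes of the 7 pathway lists, 1 point per gene; red marks the edgeR call, yellow genes called by DESeq2 alone, and black lines the list medians. CCN2 is the red point, at 0.69, and PLAU, STC1 and STC2 lie between -0.60 and -0.38.

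Genes for proteins that carry an IGFBP-like domain without being classical IGF carriers went both ways, with 2 of 7 tested positive and a median of -0.06. CCN2, a matricellular protein that stimulates matrix production, was at 108, 103 and 101 CPM untreated and 167, 173 and 164 CPM with raffinose. It was the 1 list gene called by edgeR (log2 fold change 0.69, SE 0.06, adjusted p = 0.0171). The call was made without untreated replicate 1 (adjusted p = 0.0305) and in none of the other 5 fits that left out a library. CCN1, its close relative, was at 518 ± 53.6 CPM untreated and 675 ± 60.5 CPM with raffinose (0.38, SE 0.10, edgeR adjusted p = 0.208) and was called higher by DESeq2. CCN5 had -0.62 (SE 0.20), CRIM1 -0.16 (SE 0.08) and neither passed.

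Of the insulin receptor and docking genes none passed by edgeR or DESeq2, and 3 of 12 tested had an unadjusted edgeR p below 0.05, against 2506 of all 18863 genes. The log2 fold change was above 0 for 10 of the 12 (median 0.22) and for 9625 of all tested genes (median 0.01). INSR, the insulin receptor, was at 18.5, 23.2 and 21.3 CPM untreated and 26.8, 24.5 and 27.3 CPM with raffinose (0.32, SE 0.11, edgeR adjusted p = 0.295). IRS2, the docking protein related to IRS1, was at 14.1, 13.1 and 16.1 CPM untreated and 17.4, 18.7 and 16.2 CPM with raffinose (0.27, SE 0.11). Groups did not overlap for 5 genes of the list, all higher with raffinose (10.6% of all tested genes), among them INSR, IRS2 and the exchange factor SOS2 (0.28, SE 0.13). DOK4 had 0.33 (SE 0.18).

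The list of regulators of IGF1R signalling, in the main but not all inhibitors, had 9 of 18 genes positive and a median of -0.0034. No gene was called by edgeR or DESeq2, and 3 had an unadjusted edgeR p below 0.05, against 2506 of all 18863. RACK1, a scaffold that binds IGF1R, had a log2 fold change of 0.17 (SE 0.05), GRB10, an adaptor that limits insulin and IGF1 receptor signalling, -0.17 (SE 0.09) and ENPP1 0.18 (SE 0.09). SOCS2, a suppressor of growth hormone signalling, was at 15.7, 14.8 and 15.7 CPM untreated and 43.0, 12.3 and 39.7 CPM with raffinose. Raffinose replicate 2 again stood apart. With all libraries the log2 fold change of SOCS2 was 1.04 (SE 0.43, edgeR adjusted p = 0.373). Without raffinose replicate 2 edgeR called it higher (1.42, SE 0.09, adjusted p = 0.0272), in a fit that called 3 of all 18863 genes higher. That fit leaves out the library that disagreed for SOCS2, so nothing is read from the call.

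Mannose 6-phosphate sorting genes, which share IGF2R's lysosomal role, had 6 of 16 positive and a median of -0.02, with no call by edgeR or DESeq2. An unadjusted edgeR p below 0.05 was reached by 1 of the 16 genes, against 2506 of all 18863. This gene was M6PR, the other mannose 6-phosphate receptor. It was at 169, 112 and 104 CPM untreated and 93.8, 82.4 and 88.4 CPM with raffinose (-0.54, SE 0.18, edgeR adjusted p = 0.303). Untreated replicate 1 was highest there. AP1G1 had 0.16 (SE 0.07), GGA2 0.15 (SE 0.06) and GNPTAB, which helps make the sorting tag, 0.20 (SE 0.11).

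**Figure D5:**
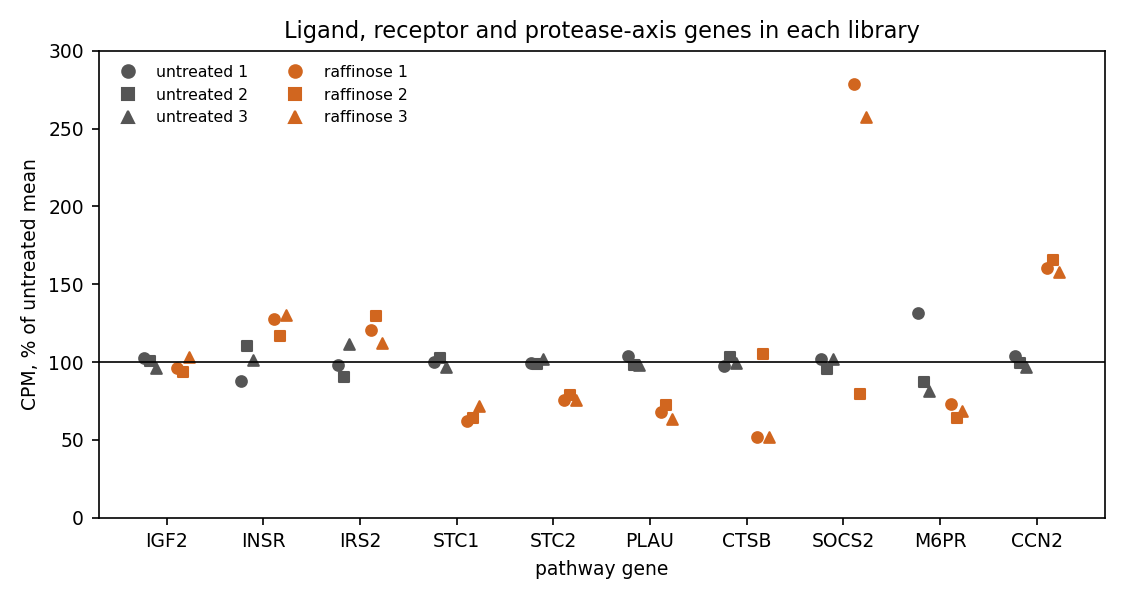
CPM of each library as a percentage of the untreated mean for 10 pathway genes; symbols are the 6 libraries. STC1, STC2 and PLAU are low in all 3 raffinose libraries and CCN2 is high, whereas for CTSB and SOCS2 raffinose replicate 2 lies near the untreated libraries.

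Total counts ranged from 59723420 to 66063664 per library, in deposited units of which 1 read pair seems to add 4. The epithelial keratins KRT8 and KRT18 were at 393 and 521 FPKM on average untreated, whereas KRT19, a ductal keratin, was at 0.119 FPKM and KRT7 at 1.16 FPKM. The summed level of the 5 epithelial markers was 851 to 988 FPKM untreated and 655 to 687 FPKM with raffinose. Most of it was KRT8 and KRT18, at 275 and 389 FPKM on average with raffinose. CDH1 was at 10.2 FPKM untreated and 9.45 FPKM with raffinose, with overlapping groups. With raffinose KRT7 was at 0.789 FPKM and KRT19, whose groups overlapped, at 0.158 FPKM. Of 8 fibroblast markers 2 reached 1 FPKM (COL1A1 and COL3A1), and the sum was 47.9 to 52.0 FPKM untreated and 44.6 to 47.3 FPKM with raffinose, with DCN at 0 in 5 libraries. These 2 collagens went opposite ways. COL3A1 averaged 47.0 FPKM untreated and 41.4 FPKM with raffinose, and COL1A1 3.10 and 3.76 FPKM. The 6 leukocyte markers summed to 12.4 to 15.9 FPKM untreated and 6.99 to 9.48 FPKM with raffinose, nearly all from CD68, a lysosomal protein, while CD3E and MS4A1 were at 0. Acinar markers were at 0 in all libraries (5 of 5), as were 3 of 5 endocrine and 3 of 4 erythroid markers, and the 5 endothelial markers summed to at most 0.116 FPKM. The part of the KRT8, KRT18, COL1A1, COL3A1 and CD68 differences in the IGFBP4 difference was not tested.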

How the data were processed

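RNA of 6 PANC-1 libraries was sequenced from poly(A) RNA as read pairs with a dUTP-marked second strand, per the labels' protocols. Tools listed in the submitters' processing notes, with no role, are HISAT2 2.0.4, cutadapt 1.9, DESeq2, StringTie 1.3.4d and edgeR. Which build was used is not given in the sources used here. In GENCODE 29 (GRCh38), 7 of the 10 members have the same start and 6 the same end. The authors deposited FPKM per gene and library, with genes without reads listed at 0.0001, and counts, per the file headers. These deposited counts are whole numbers and were taken as estimated counts from their values. A deposited count of 4 was held by 1255 to 1382 genes per library and a count of 3 by 440 to 497, so 1 read pair seems to add 4.

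The deposited counts went into edgeR 4.0.16 (R 4.3.3) unscaled. filterByExpr (minimum count 10) kept 18863 genes, TMM scaled the libraries, and glmQLFTest compared the groups. A gene was called at an adjusted p under 0.05 (Benjamini-Hochberg, all tested genes). The SE is the log2 fold change divided by the square root of F. The fit was tested on simulated counts. Members and lists were chosen with earlier results of these data known. Named genes are all members, set partners (such as IGF2, INSR, PAPPA, STC1), up to 4 genes of each list at 1 FPKM or more with the smallest p, the 5 most like IGFBP4 and its neighbours. Marker genes came from the marker lists. Alternatives used limma 3.58.1, DESeq2 1.42.0, other filters and scalings, a replicate block and each library left out.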

Additional observations from a re-analysis of the deposited data

How the results depend on the processing

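IGFBP4 was lower in all 14 alternatives, with a log2 fold change of -0.93 to -0.83, and was called in 9 of them. IGF1R, IGF2R, IRS1, IGFBP2, IGFBP3 and IGFBP6 kept their direction and were not called in any alternative that tested them. The main fit called 23 of 18863 genes, 1 member and 1 list gene. On the 12012 genes with at least 1 FPKM edgeR called 42 genes and 3 list genes. DESeq2 called 663 genes and 5 list genes, limma on log2(FPKM + 1) 31 and 2, and limma on log2(FPKM + 0.1) 29 and 2. With a library left out the counts ranged from 4 to 23 genes, 0 to 1 members and 0 to 2 list genes, the 4 being without untreated replicate 3. Each of these fits had fewer libraries than the main fit, and why their counts differed was not tested.

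With the replicate block edgeR called 0 genes, 0 members and 0 list genes, with 1932 genes at an unadjusted p under 0.05. IGFBP4 had an adjusted p of 0.266 there, with a log2 fold change of -0.89 (SE 0.07). Libraries sharing a number deviated together with correlations of -0.01, -0.08 and 0.03, and 0 of 6 correlated best with their own number. These values show no sign of pairing by number, but with 3 libraries per group they cannot exclude it.

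The direction turned for IGFBP1 (log2 fold change 0.27) to -0.20 with limma on log2(FPKM + 0.1), -0.64 with the replicate block and -1.03 to 0.86 with libraries left out, and for IGFBP7 (-0.43) to 0.036, 1.05 and -1.01 to 2.98. Both rest on few reads. Ordering levels by CPM per kilobase was not run, as the table used here has no length column.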
